A study of Arabidopsis thaliana with 6 samples.

Results

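The messages described here are those that dry mature pollen grains of Arabidopsis thaliana carried at the moment of collection, before any contact with water or medium. They were read from the 2 arrays of desiccated mature pollen, out of 6 arrays in the series, and the probe sets were ordered by the mean signal of those 2 arrays. The order covers 22746 probe sets of the Affymetrix ATH1 array, a single-colour array on which each gene is represented by a set of short probes, after 64 control probe sets were left out. The brightest 100 and the brightest 1000 probe sets are described in most detail.

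The plants were of the wild-type ecotype Columbia and 50 days old. Pollen was taken with a vacuum device from flowers whose anthers had just opened, and total RNA of the grains was labelled. The other 4 arrays of the series hold hydrated pollen and growing pollen tubes, and no stage was compared with another. The replicates are called biological in the series' design text, with no further account of their origin in the sources used here. A sample of whole grains pools the vegetative cell with the sperm cells inside it, so that fewer cells of a type and less RNA per cell cannot be told apart.

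An Arabidopsis pollen grain is the male gametophyte, a large vegetative cell that encloses a pair of sperm cells. It is shed dry and nearly inactive. After landing on the stigma it takes up water and extends a tube that grows at its tip by secreting new wall and membrane. Ripe pollen is known for holding messenger RNA made before shedding, from which proteins of germination and early tube growth can be translated. Such messages encode, among others, enzymes that remodel the pectin of the tube wall, small secreted proteins, and parts of the cytoskeleton and of the signalling machinery at the tip.

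Signal is a linear intensity in arbitrary units, scaled separately on each array. The brightness of a probe set depends on how well its probes bind as well as on the amount of message, and it carries no correction for transcript length. The order is therefore an order of array signal, not of molecules per grain. Of the 100 brightest probe sets, 56 stand for 1 gene each, which is 0.421% of the 13286 genes with a probe set of their own, 4 for several similar genes, and 40 were unnamed here. Of the 1000 brightest, 554 carried 1 gene found in the reference table, and these stand for 553 genes. A gene that is not mentioned may thus still be among the bright probe sets.

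Signal was concentrated on few messages. The 10 brightest probe sets held 5.7% of all signal on array 1 and 4.63% on array 2, a mean of 5.17% ± 0.758 (SD, n = 2 arrays). The 100 brightest, which are 0.44% of the probe sets, held 35% on array 1 and 31.6% on array 2 (33.3% ± 2.37, SD, n = 2). The 1000 brightest held 82.2% and 82.5% (82.3% ± 0.242, SD, n = 2). Both arrays thus gave the same picture of a steep order. It took 191 probe sets on array 1 and 214 on array 2 to reach 50% of the signal, and 2092 and 1820 to reach 90%.

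The mean signal was 40209 at the first rank, 33275 at rank 10, 15324 at rank 100 and 963 at rank 1000. The median of the means of all probe sets was 20.8. The 60th percentile, taken here as the limit of background because detection calls were not used, was 34.1 on array 1 and 25.1 on array 2. Above it on both arrays lay 6673 probe sets, or 29.3% of all, and among the genes with a probe set of their own 27.8%.

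**Figure D1:**
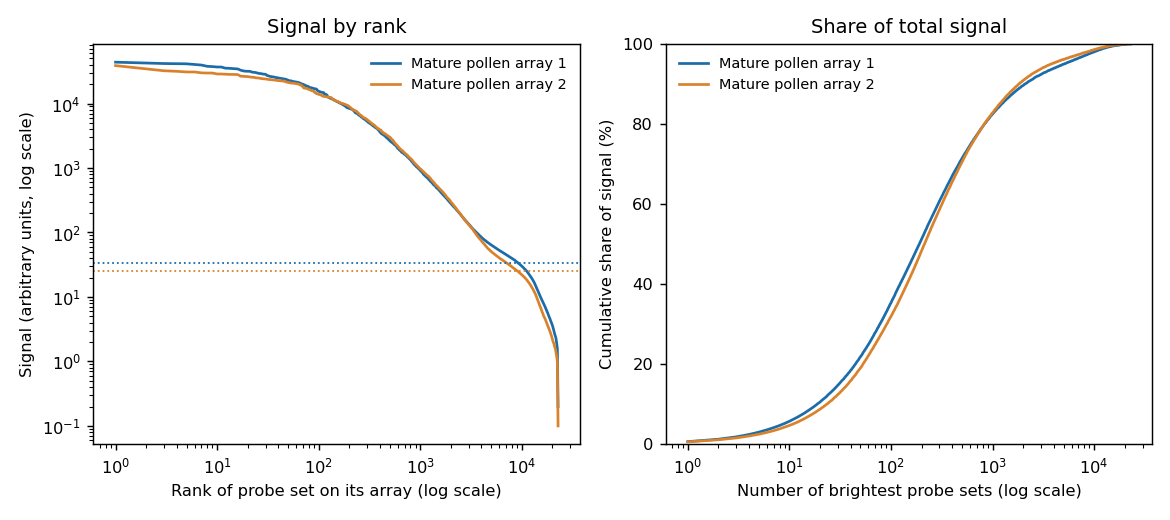
Signal of each probe set by its rank on the array (left, both axes on log scales, arbitrary units, dotted lines at each array's 60th percentile) and the cumulative share of signal in percent by number of brightest probe sets (right). The curves of the 2 mature pollen arrays run close together, and the 1000 brightest probe sets reach 82.2% of the signal on array 1 and 82.5% on array 2.

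The arrays agreed well on which messages were abundant and less well on their exact order. Each array's own 100 brightest probe sets had 84 in common, its 10 brightest 8, and its 1000 brightest 871. In the joint list of 100, every probe set lay within 2-fold between the arrays. The log2 difference, array 1 minus array 2, ran from -0.90 to 0.89 there with a median of 0.25, and 77 of the 100 were brighter on array 1. Across the 1000 brightest the median difference was 0 and 865 lay within 2-fold, while over all probe sets only 51.2% did. Across the 1000 brightest, Pearson's r of the log2 signals was 0.878, a description across probe sets that share the same 2 arrays.

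**Figure D2:**
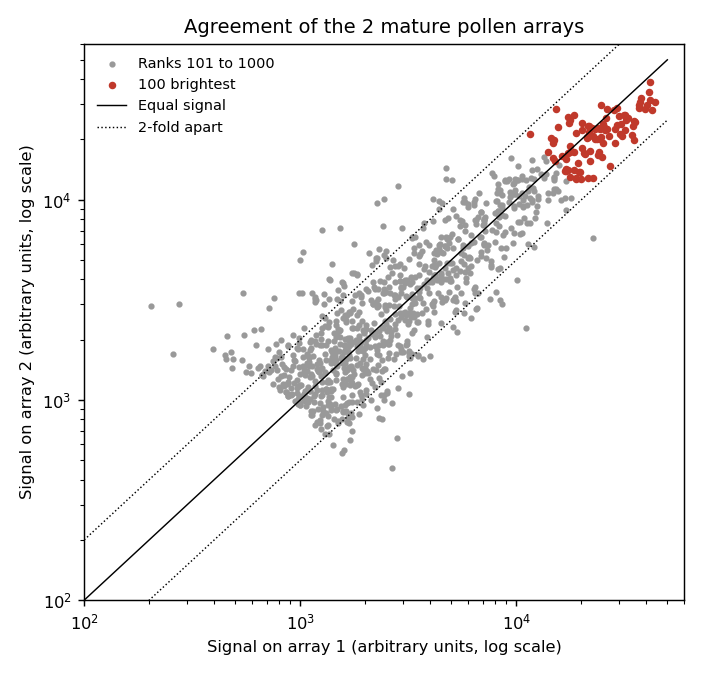
Signal on array 2 against signal on array 1 for the 1000 brightest probe sets (log scales, arbitrary units), with the line of equal signal and dotted lines 2-fold away. The 100 brightest, in red, lie between the dotted lines, and the spread is wider among the grey points of the remaining ranks up to 1000.

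The brightest probe set belonged to AT3G28750, a protein for which no role is given here. It read 41706.9 on array 1 and 38711 on array 2, ranks 3 and 1, with a mean of 40209 ± 2118 (SD, n = 2). It alone accounted for 0.58% of the signal. The first place was not settled by both arrays, since an unnamed probe set was brightest on array 1. The named genes that followed had overlapping ranges, and several changed places between the arrays.

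**Figure D3:**
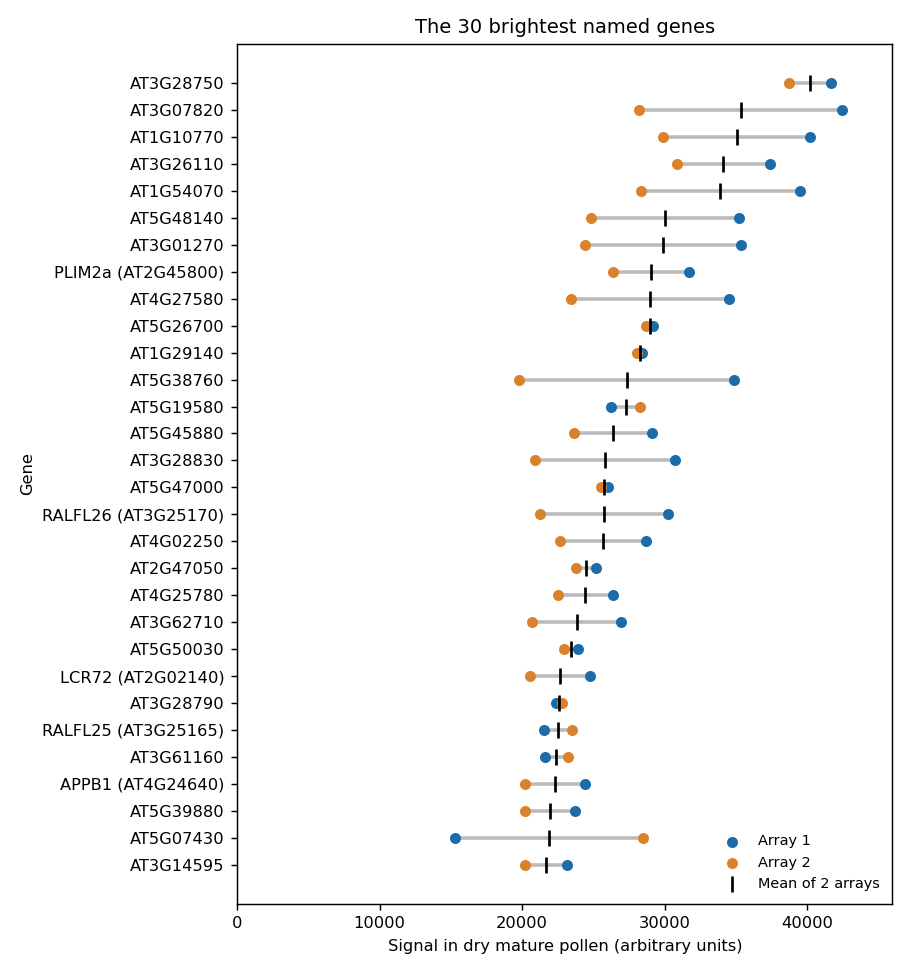
Signal of the 30 brightest genes that have a probe set of their own in dry mature pollen (arbitrary units, linear axis from 0), with array 1 in blue, array 2 in orange and the mean as a black tick. AT3G28750 leads with 41706.9 and 38711, and most neighbours in the order have overlapping ranges.

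Pectin enzymes and the inhibitor family linked to them formed the most numerous group of known role among the bright messages. Of the 56 named genes in the 100 brightest, 16 were in this group, and 10 of them encode enzymes that act on pectin, the acidic polysaccharide of the tube wall. The 16 were 2 polygalacturonases, which cut the pectin chain, 3 pectate lyases, which cut it by elimination, 5 pectin methylesterases, which remove methyl groups from it, and 6 proteins of the family of invertase and pectin methylesterase inhibitors. The 16 genes held 5.6% of all signal on array 1 and 5.1% on array 2, and the 10 enzymes alone 3.34% and 3.11%. With 3 further probe sets that each cover a pair of pectin enzymes, the share was 7.02% and 6.34%. Roles were assigned after the order had been seen, and how many genes of each role the whole array holds was not counted.

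The brightest of them was the polygalacturonase AT3G07820, with 42491.4 on array 1 and 28230 on array 2 (35361 ± 10084, SD, n = 2). The polygalacturonase AT5G48140 read 35204.5 and 24809.2, and the pectate lyase AT3G01270 35375.8 and 24414.2. All 3 were brighter on array 1, and their ranges overlap. The probe set shared by the polygalacturonases AT3G14040 and AT3G07850 read 37774.4 and 32216.7, and cannot be divided between them. Lower among the pectate lyases were AT5G15110 with 14751.3 and 16130.6, and AT2G02720 with 16933.6 and 13847.6. AT59 (AT1G14420), a further pectate lyase, lay just outside the 100 brightest, with 11810.5 and 15811.3. AT2G23900, of the polygalacturonase family, came directly after rank 100 with 15709.4 and 14868.1, where the unnamed probe set at that rank read 16794.6 and 13853.7. These values overlap, so the end of the list is not a gap in signal. Not every gene of the family was bright: AT3G07840, a polygalacturonase gene close to AT3G07820 in locus number, read 110 and 155.4.

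Proteins of the inhibitor family spanned much the same range of means as the enzymes, 16465 to 35075. AT1G10770 read 40239.8 and 29910, ranks 6 and 7 on the 2 arrays. AT4G02250 read 28717.6 and 22664.4, and AT2G47050 25177.4 and 23803.5. AT5G50030 (23904.4 and 22957.3), APPB1 (AT4G24640, 24400 and 20188.1) and AT3G62180 (17026.5 and 15903.3) completed the 6. All 6 were brighter on array 1, with SDs between 670 and 7304. Proteins of this family inhibit either pectin methylesterases or invertases in other plants and tissues, and which of these each gene inhibits is not given by the data.

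Among the pectin methylesterases, the probe set shared by VGD1 and VGDH1 was the brightest, with 36843.4 and 28710.3 at rank 11. VGD1 is known to be needed for tubes to grow through the style. The probe set shared by PPME1 and AT5G07410 read 25550.3 and 23215. The single genes were AT5G07430 (15295.7 and 28467.7), AT5G07420 (24930 and 16412.7), AT3G17060 (20090 and 22350.2), AT3G05610 (14411.3 and 20356.6) and AT2G26450 (16296.3 and 16582.5). AT5G07430 and AT5G07420 are adjacent genes, and array 1 and array 2 placed them in opposite order. A separate list of 11 pectin methylesterases had 5 named genes, with AT3G06830 and AT5G27870 but without AT3G17060 and AT2G26450. All 5 were among the 1000 brightest, beside 4.16% of all named genes. The list was chosen with earlier results of these data known, so no conclusion is drawn from this difference. The dimmest of the 5, AT5G27870, read 5020 and 12565.6, a wide difference between the arrays.

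The other wall genes of the 100 brightest were AT3G62710, a glycosyl hydrolase (26937.7 and 20714), the endoglucanase GH9A4 (17379.7 and 25849.7), the beta-glucanase-type AT3G55430 (14815.3 and 19123.3) and the leucine-rich extensin AT1G49490 (21352.6 and 12913.9). Leucine-rich extensins bind signal peptides in the pollen tube wall and help to keep it intact. AT2G15880 read 22687.1 and 6421.4, AT3G19020 17951.5 and 10172.9, and AT4G33970 11100.1 and 2280.3. All 4 extensins were brighter on array 1, so their share of the signal was 1.04% on array 1 and 0.468% on array 2. The 2 brightest expansins, proteins that loosen cell walls, were brighter on array 2. EXPA4 read 4744.1 and 14439.1, and EXPB5 3745.4 and 7614.4. For these 6 genes the difference between the arrays is as large as many gaps in the order, and their ranks are loose.

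**Figure D4:**
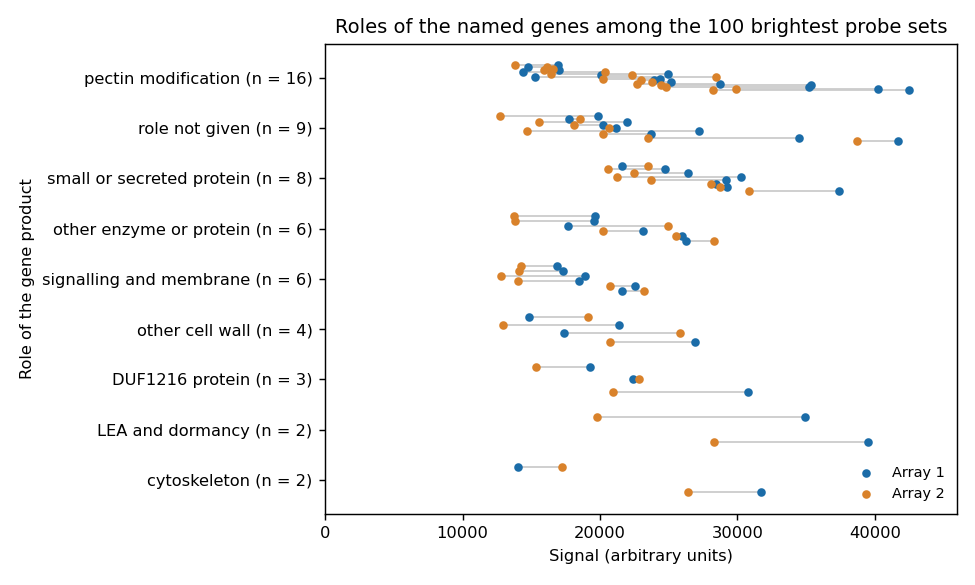
Signal of the 56 named genes among the 100 brightest probe sets, by the role of the product (arbitrary units, linear axis from 0), with the 2 arrays of each gene joined by a grey line. Pectin modification has the most genes, 16, and runs from 14411.3 to 42491.4 on array 1.

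Small or secreted proteins were the next group of known role, with 8 of the 56 genes and 3.22% of the signal on array 1 and 2.93% on array 2. AT3G26110, an anther-specific protein, read 37386.2 and 30859.4. AT5G26700, of the cupin family of sugar-binding and storage-type proteins, read 29205 and 28734.6. AT1G29140 and AT5G45880 belong to the Ole e 1 family, named after an olive pollen allergen, and read 28426 and 28079, and 29151.2 and 23674.9. Their log2 differences, array 1 minus array 2, were 0.28, 0.02, 0.02 and 0.30 in that order, where the median size of that difference over the 100 brightest was 0.30. The other 2 named members of the Ole e 1 list, SAH7 (64.3 and 52.9) and AT1G78040 (38.4 and 19.4), were far dimmer.

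RALFL26 and RALFL25 encode peptides of the rapid alkalinization factor family, which in pollen tubes act on receptor kinases. RALFL26 read 30242 and 21241.9, and its neighbour on the chromosome RALFL25 read 21572.6 and 23471.7. Of 10 genes with a RALFL symbol, 3 lay above background on both arrays, a share near the 27.8% of all named genes, and the median of the 10 was 15.8. LCR72 (AT2G02140), a defensin-like peptide also called PDF2.6, read 24748.2 and 20583.6, and was the 1 gene above background on both arrays among 13 with defensin-like symbols, beside 27.8% of all named genes. AT4G25780, of the secreted CAP family, read 26368.4 and 22496.

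Genes coding for DUF1216 proteins, whose function is unknown, lie in 1 region of chromosome 3, and most of those named here were bright. Of 8 listed, 6 were named here and all 6 were above background on both arrays, beside 27.8% of all named genes. The list was chosen with earlier results of these data known. AT3G28830 read 30747 and 20937.3, AT3G28790 22412.3 and 22826.2, and AT3G28980 19272.4 and 15342.7. AT3G28780 read 4670.5 and 7880.1, AT3G28840 1052.8 and 987.1, and AT3G28770 261.2 and 238.5. Their means ran from 250 to 25842, and each gene lay within 2-fold between the arrays. A probe set shared by AT3G28820 and AT3G28810 read 13453.6 and 12861.2. The brightest gene of all, AT3G28750, has a locus number in the same region, whereas AT3G28760 beside it read 7.3 and 3.3.

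Genes linked with drying and dormancy included a few very bright messages. AT1G54070, of the dormancy- and auxin-associated family, read 39525.6 and 28318.2 at rank 9. AT5G38760, of the late embryogenesis abundant (LEA) proteins that protect cells in dry tissue, read 34892.8 and 19801.7. It was among the 3 named genes of the 100 brightest that leaned most to array 1. AT5G27980, a seed maturation protein, read 16095 and 10021. Of 11 named genes in the dehydration and LEA list, which did not include AT5G38760, 5 were above background on both arrays, beside 27.8% of all named genes. This list too was chosen with earlier results of these data known. The list had a median of 32.4, and AT5G27980 stood far above its next member, AT5G53820 (418.8 and 218.3). LEA4-5 read 25.3 and 35.7 and COR47, a dehydrin, 11.8 and 51.7, values that do not lie above background on both arrays.

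Cytoskeleton messages included PLIM2a, a LIM-domain protein that bundles actin in pollen, with 31719.1 and 26376.5 and rank 19 on both arrays. The tubulins TUA1 (14025.9 and 17247.3) and TUB9 (14937.3 and 12864.8) were bright too, and SP1L4, a SPIRAL1-like microtubule protein, read 13771.1 and 15679.2. All 7 genes with tubulin symbols were above background on both arrays, beside 27.8% of all named genes. Of the 7, 4 were among the 1000 brightest, beside 4.16%. In the actin list, chosen with earlier results of these data known, 5 of 20 genes were named. Beside the same 27.8%, all 5 were above background, from which no conclusion is drawn. They were PLIM2a, PLIM2b (6683.3 and 10866.7), the actins ACT12 (3276.5 and 6500.7) and ACT11 (3275.9 and 3217.6), and the fimbrin AT5G55400 (293.2 and 226.8), which cross-links actin filaments.

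The signalling messages given here mostly lay outside the 100 brightest but within the 1000 brightest probe sets. Within the 100 brightest were AT3G61160, a kinase of the GSK3/shaggy type (21601.6 and 23233.5), AT1G70790 and AT1G04540 with membrane-binding C2 domains (22532.6 and 20751.4, and 17341 and 14133.3), AT3G54800 with PH and START domains (16897.4 and 14233.8), AT5G47540 of the Mo25 family (18909.7 and 12809.2) and the F-box protein AT2G26850 (18450.2 and 14036). Among the 200 brightest the group had 20 of 112 named genes. Its roles were assigned after the order had been seen, and how many such genes the whole array holds was not counted. Of the tip growth list, 7 of 27 genes were named. Of these, 0 were in the 100 brightest and all 7 in the 1000 brightest, beside 0.421% and 4.16% of all named genes. This list was chosen with earlier results of these data known, so no conclusion is drawn from these counts. The receptor kinase AT4G39110 (BUPS1) read 13992.9 and 9950.9 and its relative AT2G21480 (BUPS2) 2907.9 and 3938.4. ANX2 read 8344 and 7428.2 and ANX1 2716.3 and 2946.9. These 4 kinases perceive RALF peptides and keep the tube from bursting. Among RhoGDI proteins, regulators of tip polarity, SCN1 (AT3G07880), which was outside the list, read 8544.8 and 9441.4. The listed RhoGDIs AT1G62450 (3133.4 and 1897.8) and AT1G12070 (1297.5 and 2339.1) and the kinase MARIS (AT2G41970, 1957.6 and 1605.2) were also among the 1000 brightest. The phosphoinositide kinase PIPK11 read 8504.8 and 5721.8 and the calmodulin-like calcium sensor AT1G24620 4870.4 and 6098.9.

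Other enzymes of the 100 brightest were the glyoxal oxidase-related AT5G19580 (26220.3 and 28303.6), the peroxidase AT5G47000 (25999.9 and 25512.1), the heme-binding SOUL protein AT1G78460 (17687.5 and 24940.8), the mutarotase-like AT5G15140 (19558.5 and 13805.6) and the serine carboxypeptidase-like scpl38 (19609.8 and 13753.1). AT3G14595, of the L18ae family, read 23163.4 and 20216. A probe set shared by the carboxypeptidase-like scpl37 and scpl36 read 22583 and 12875.4. Of 29 such genes with a probe set of their own, 6 were above background on both arrays, beside 27.8% of all named genes. No role is given here for 9 of the 56 genes, among them AT4G27580 (34508 and 23459.6), AT5G39880 (23695.1 and 20215.8), and AT5G54095 (27221.1 and 14672.9), the named gene of the 100 brightest with the largest lean to array 1. AT5G07430, at -0.90 on the log2 scale, leaned most to array 2 among the named genes of the 100 brightest.

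The listed transcription factor messages lay below the 100 brightest. Of 11 named genes in the list of pollen factors, 10 were above background on both arrays, beside 27.8% of all named genes. Of the 11, 5 were among the 1000 brightest, beside 4.16%, and 0 among the 100 brightest, beside 0.421%. The list was chosen with earlier results of these data known, so no conclusion is drawn from these counts. The MADS-box factor AGL18 was brightest, with 6759.8 and 6526.6. The bZIP gene AT1G35490 read 6612 and 3406.6, AT2G40620 (bZIP18) 719 and 2883, and AGL66 1729.4 and 1296.5. AGL94 (2.1 and 17.7) was at background. No gene of the 6 with a WRKY symbol was above background on both arrays, beside 27.8% of all named genes.

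Several groups lay far below the brightest messages in the dry grain, some near background and others above it. Of 8 named heat shock genes 1 was above background on both arrays, beside 27.8% of all named genes. It was the small heat shock protein AT1G53540, with 59.1 and 30.8. The highest mean belonged to the immunophilin AT5G48570, which read 107.2 and 17.2 and so differed widely between the arrays. Of the sugar carriers AtVEX1 read 117.4 and 340.6, TMT3 71.1 and 62.6, SWEET8 64.7 and 21.8, and AT3G19940 (STP10) 5.1 and 1.7. All 15 genes with a SWEET symbol were below 100 on average, and the brightest, SWEET1, averaged 62. Of the 15, however, 6 were above background on both arrays, beside 27.8% of all named genes. Their median was 37.1, where that of all named genes was 20.1. The lipid droplet genes AT1G67360 (154.8 and 108.4), AT3G18570, an oleosin (118.2 and 115.8), and AT2G25890 (52.7 and 40.8) were low. All 3, the named genes of that list, were above background on both arrays, beside 27.8% of all named genes. Of 69 named plastid-encoded genes, 4 were above background on both arrays, beside 27.8% of all named genes. The median of the 69 was 16.4.

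Some larger symbol families were dim too. Of 47 genes with a UGT symbol, which are glycosyltransferases of small molecules, 5 were above background and the brightest, UGT80B1, averaged 77.7. Of 23 cytochromes P450, most of them of the CYP71B subfamily, 0 were above background on both arrays. Of 15 IQ-domain proteins, which bind calmodulin, 1 was. These shares lie below the 27.8% of all named genes. By contrast 9 of 12 ubiquitin-conjugating enzymes were above background, led by UBC28 (5661.5 and 5771.8), and 7 of 10 autophagy genes, led by APG8H (1954.4 and 942.2). The CHX cation exchangers CHX6B (1317.7 and 1130.5) and CHX15 (862.8 and 1419.6) and the tetraspanin TET13 (2304.8 and 1668) were the brightest of their families. The families were picked by gene symbol, and most genes of the array carry no family symbol.

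**Figure D5:**
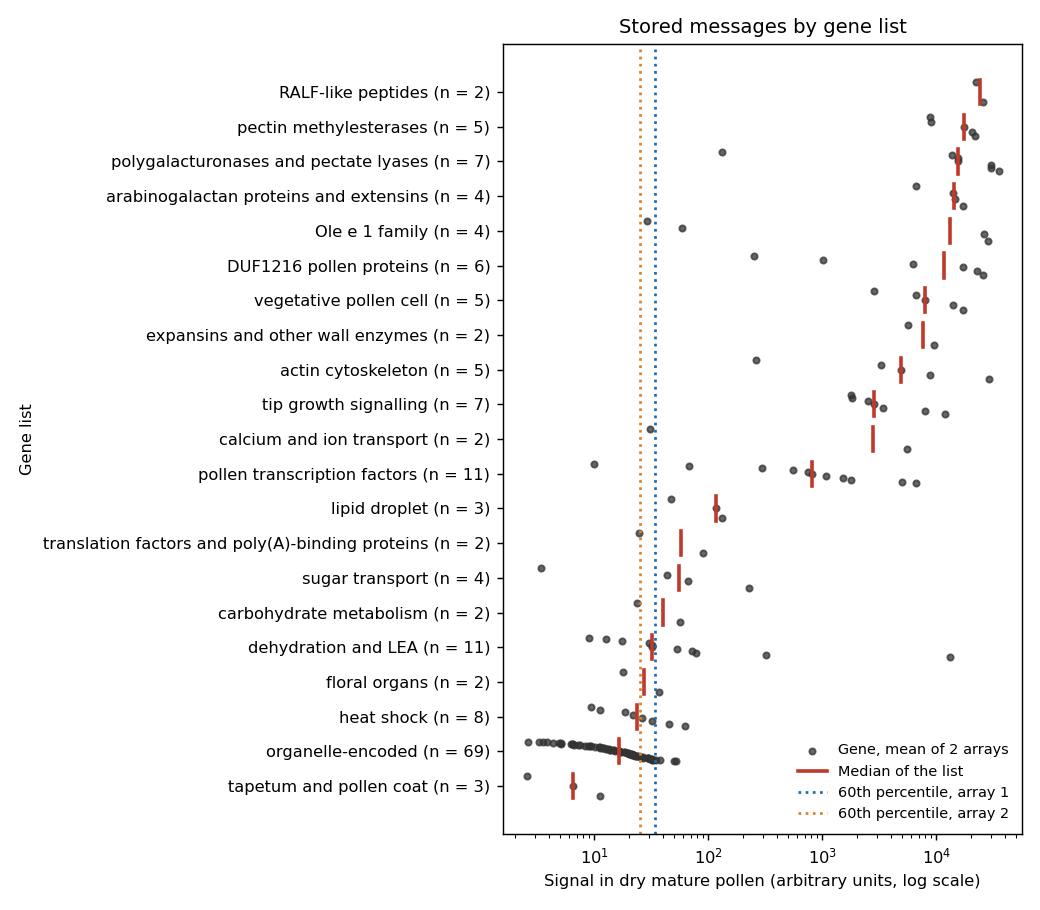
Mean signal of each named gene in dry mature pollen by gene list (arbitrary units, log scale), with the median of each list in red and the 60th percentile of each array dotted. The medians of the lists for pectin enzymes, extensins and RALF-like peptides lie far to the right of the dotted lines. Those for heat shock, plastid-encoded and tapetum genes lie left of them. The RALF-like list holds only RALFL25 and RALFL26, while the 10 genes with a RALFL symbol have a median of 15.8. All lists without the cell type markers held 8.47% of the signal.

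The markers bear on what the samples held. Of 12 markers of the vegetative cell, 5 were named here. They were the extensins AT1G49490, AT3G19020 and AT4G33970 and the kinases ANX1 and ANX2. These genes were already described above, so they are not separate observations. All 5 were among the 1000 brightest, beside 4.16% of all named genes. The markers were chosen with earlier results of these data known, so no conclusion is drawn from this count. The summed signal of the 5 was 61464.5 on array 1 and 35742.2 on array 2. The sperm cell histone MGH3, the 1 named gene of 10 sperm markers, read 2442.5 and 1430.7. Tapetum genes, from the tissue that nourishes the young grain, summed to 26.7 and 13.9 over 3 named of 16, with SHT at 2.8 and 2.3. The leaf marker RCA read 23.1 and 19.4, below background on both arrays. SWEET9 and SPT, the 2 named of 11 floral organ markers, read 48.8 and 25.8, and 12.8 and 22.7. SWEET9 was thus above background on both arrays, by a small margin. Of the 8 epidermis genes none was named here.

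Among the 553 named genes of the 1000 brightest, 22 pairs were adjacent in the TAIR10.1 gene order. Read from each bright gene to the named genes next to it, 44 of 520 neighbours were themselves among the 1000 brightest, or 8.46%, beside 4.16% of all named genes. No test was run on this difference. In the 100 brightest there were 2 such pairs, RALFL25 with RALFL26 and AT5G07420 with AT5G07430. Both are pairs of related genes, and whether their probe sets take up signal from each other was not tested. Of the 56 genes 19 carry locus numbers of chromosome 3 and 16 of chromosome 5, against 8 of chromosome 1, 9 of chromosome 2 and 4 of chromosome 4. The named genes as a whole numbered 2720 on chromosome 3, 2982 on chromosome 5 and 3411 on chromosome 1. Chromosomes 2 and 4 had 2169 and 1935. In the 1000 brightest, chromosomes 1 to 5 had 147, 72, 126, 78 and 130 named genes in that order. Of all named genes, 0.421% were in the 100 brightest and 4.16% in the 1000 brightest. The spread over chromosomes was not tested.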

How the data were processed

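Each array came as a deposited table of MAS5-type signal, a linear intensity for every probe set. The submitters' processing notes list GCOS 1.0 and MAS5. The mean of an array without its lowest and highest 2% was 100.02 to 100.03, so a common target had been set. No label names a genome build, so no coordinates are printed.

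Of 22810 probe sets, 64 controls were left out, and the 2 mature pollen arrays were averaged on the linear scale. Shares are of summed signal. Levels within 1 stage have no group to be tested against, so no test was run, and error is given as both values or as SD (n = 2). The number of arrays limits the precision. The brightest probe set stood for a gene that had several, and of 8 such genes among the 1000 brightest probe sets, 5 had probe sets over 4 times apart.

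Names came from the platform annotation through the TAIR10.1 reference table. Of the probe sets, 13513 had 1 gene (13436 of these were found in the table), 503 had several, and 8730 were unnamed here. Roles are background knowledge. The naming rule took the 30 brightest probe sets with 1 gene, the brightest 4 genes and the dimmest of each list, the 3 of the 100 brightest leaning most to each array, those at ranks 10 and 100 and just after, and adjacent genes among the 100 brightest. Not every gene it took is described above. The lists of translation factors and carbohydrate metabolism, with 2 named genes each, were left out. Their brightest genes were EIF4A-2 (88.2 and 92.6) and GAPC2 (53.2 and 58.7). Further genes were chosen after their values were seen, as were roles and symbol families. Members and lists were chosen with earlier results of these data known, and AT3G28750 was taken out of the DUF1216 list because its family was unsure. Protein and promoter features were planned and not analysed here. The ranking and shares were tested on simulated data in which the 100 brightest were raised clear of the rest. These arrays have no such gap, so that test checks the code and not how firm the list of 100 is. Python 3.11.15, pandas 2.3.3, numpy 2.4.6 and matplotlib 3.10.9 were used.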

Additional observations from a re-analysis of the deposited data

How the results depend on the processing

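No paired analysis was possible because the results come from 1 stage and from no test. Of the 100 brightest probe sets, 99 stayed under the geometric mean, scaling to the 75th percentile and quantile normalization, and 94 both with the lower of the 2 arrays and without probe sets ending in _s_at or _x_at, which can detect several genes. Without one replicate, 91 to 92 stayed. Of the 1000 brightest, 933 to 998 stayed under these settings. Under the same settings, chosen for these counts after seeing the data, the pectin group numbered 14 to 18 and adjacent pairs 20 to 23. Shorter and longer lists, also chosen after seeing the data, held 8 pectin genes in the 50 brightest and 21 in the 200 brightest. The share of the 1000 brightest became 84.1% with signals at or below the 60th percentile counted as 0, 87.1% with that percentile subtracted, and 82.5% to 82.8% without one replicate. Without one replicate, the share of the 10 brightest was 4.66% to 5.7%, that of the 100 brightest 31.9% to 35.3%, and that of all lists without cell type markers 8.05% to 8.89%. A background limit at the 50th or 75th percentile, added after seeing the data, left 8350 or 4579 probe sets above it on both arrays, against 6673. Planned repeats on protein and promoter features were not run.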
